A study of Homo sapiens with 27 samples.

Results

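A pair of ARNT knockout clones of Panc1, a human cell line established from a pancreatic ductal adenocarcinoma, were compared in how they responded to a change of medium at low oxygen. The TIFM response of a clone is its level in Tumor Interstitial Fluid Medium (TIFM) minus its level in regular medium, both in hypoxia (1% O2) for 48 hours. The value followed throughout is the TIFM response of clone A minus that of clone B, on a log2 scale, for every gene. It rests on 12 of the 27 libraries: clone A in TIFM, clone A in regular medium, clone B in TIFM and clone B in regular medium, with 3 replicates each. Regular medium was DMEM with 10% FBS and 1% P/S, the labels' abbreviations. Both clones carry a CRISPR-Cas9 knockout of ARNT, so all 12 libraries share it and the comparison does not measure the loss of ARNT. For a difference between the clones, what a clone's own edit did and what that clone had otherwise cannot be told apart. Parental Panc1 cells in the same hypoxic media (3 libraries each) are given only as levels.

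ARNT is the partner subunit with which HIF1A and EPAS1 bind DNA in hypoxia and with which the aryl hydrocarbon receptor binds DNA after a ligand. Cells without it lack the usual HIF output, and what remains of a response to hypoxia or to medium runs through other regulators. TIFM is modelled on the nutrient content of fluid from pancreatic tumors. It differs from regular medium in amino acids, lipids and other nutrients, which cells read through pathways such as the ATF4 amino acid response and the sterol-sensing SREBP pathway.

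Libraries of the 12 held between 26057022 and 34235356 counts. No label says that replicates were separate cultures, so the p-values cover no more than the spread among the libraries at hand. Replicates of clone A in TIFM spread most, with a biological coefficient of variation of 29.2%, against 12.7% in clone A in regular medium, 17.2% in clone B in TIFM and 10.0% in clone B in regular medium. Libraries also differed with the GC content of the transcripts. The genes were put in 5 equal classes by GC content, and the median deviation in the richest class minus that in the poorest was -0.19, 0.68 and 1.07 (log2) in replicates 1, 2 and 3 of clone A in TIFM. It was between -0.12 and 0.05 in clone A in regular medium, between -0.56 and -0.30 in clone B in TIFM and between -0.13 and 0.01 in clone B in regular medium. The count of each gene list is therefore followed by its counts after a correction for GC content within each library (the GC correction), without the GC-shifted libraries, replicates 2 and 3 of clone A in TIFM, and without the libraries with liver transcripts described next. Where a block for the replicate number within each medium moved a list's count by over 1.5 times, that count is given too. The share of all genes called differed between these settings and is given below. A list's count is therefore to be read beside the share of all genes in the same setting. All 7 fixed markers of the line (KRT8, KRT18, KRT7, KRT19, VIM, CDH2 and EPCAM) had counts in every library.

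**Figure D1:**
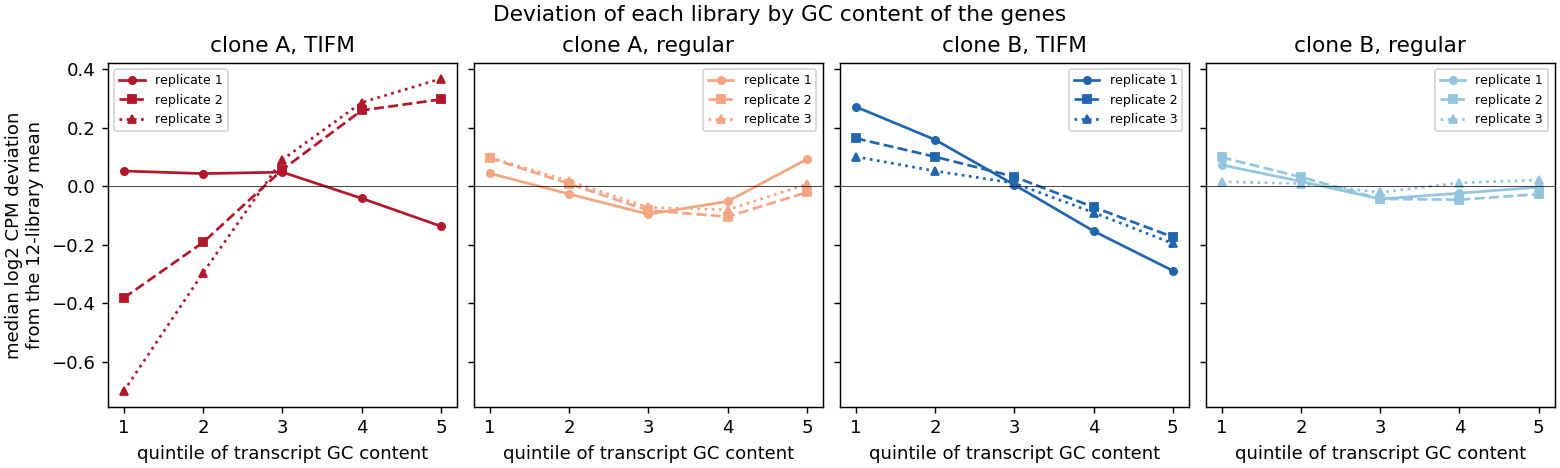
Median deviation of each of the 12 libraries from the mean of all 12 (log2 CPM, vertical axis) in 5 classes of transcript GC content (horizontal axis), with 1 panel per group and 1 line per replicate. Replicates 2 and 3 of clone A in TIFM climb with GC content, replicate 1 does not, and all 3 replicates of clone B in TIFM slope downward.

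Transcripts of liver were present in some libraries. The summed level of 18 such transcripts, a list made after the values were seen, was 46.5, 51.0 and 1.19 CPM in replicates 1, 2 and 3 of clone A in TIFM. It was 1.37, 0.680 and 0.767 CPM in clone A in regular medium, 1.25, 1.69 and 1.58 CPM in clone B in TIFM and 1.41, 1.07 and 15.8 CPM in clone B in regular medium. Of the 18, VTN, HP and RBP4 had no count in any library. Each result was recomputed without the 3 liver-transcript libraries. These were replicates 1 and 2 of clone A in TIFM and replicate 3 of clone B in regular medium. Clone A in TIFM is then left with replicate 3 alone, the library that climbed most with GC content (1.07, log2). Counts in that setting therefore rest on a single GC-shifted library of that group. The part of liver transcripts in other results was not tested. Of 22 markers of blood, vessel, muscle, islet, acinar, liver and glial cells, 8 passed the filter on low counts. Their summed level was 175.0 to 306 CPM in clone A in TIFM, 119 to 163 CPM in clone A in regular medium, 141 to 165 CPM in clone B in TIFM and 179 to 182 CPM in clone B in regular medium. Most of that sum was CD68, whose exons overlap another gene over 85.8% of their length. Insulin (INS) was at 0 in every library, and PTPRC, the leukocyte marker, was at 0.0674, 0.0407 and 0.844 CPM in the 3 replicates of clone A in TIFM.

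**Figure D2:**
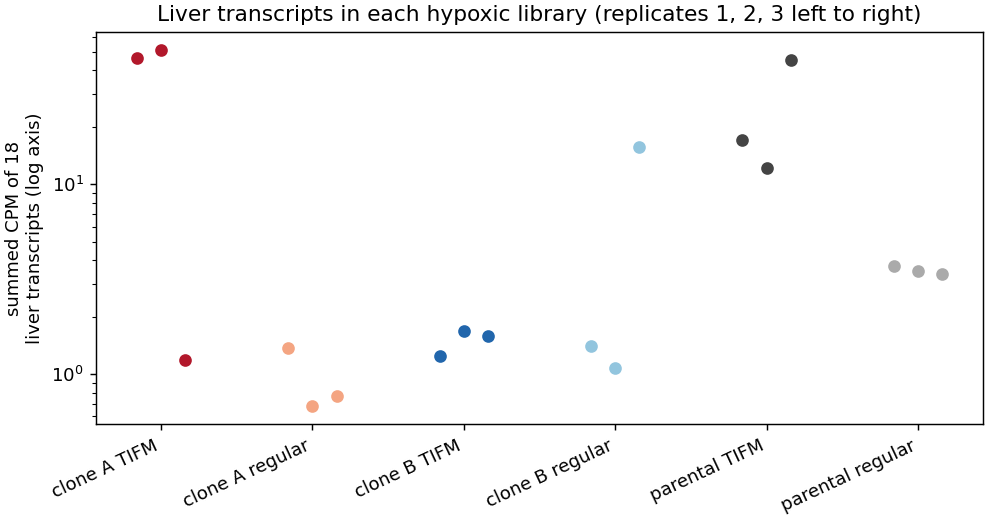
Summed level of 18 liver transcripts (CPM, log axis) in each hypoxic library, by group. Replicates 1 and 2 of clone A in TIFM (46.5 and 51.0 CPM), replicate 3 of clone B in regular medium (15.8 CPM) and the 3 parental libraries in TIFM stand above the rest.

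The TIFM response differed between the clones for 3305 of 13497 tested genes, 24.5% of them (edgeR quasi-likelihood F test, Benjamini-Hochberg adjusted p under 0.05). The response of clone A was higher than that of clone B for 1902 genes (14.1%) and lower for 1403 (10.4%), and the median over all tested genes was 0.02 (log2). With library totals in place of TMM scaling, 2880 genes were called, 44.0% of them higher against 57.5% with TMM, and the median over all tested genes was -0.13. The medians of the fatty acid, cytokine, DNA replication and p53 lists, all near 0 with TMM, then turned negative, and those of the other lists kept their sign. A difference of at least 2-fold was seen in 849 of the genes called higher and 845 of those called lower. In what follows, a gene called higher or lower is one whose TIFM response was higher or lower in clone A than in clone B at that threshold.

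In the edgeR test of the TIFM response, more genes passed in clone A than in clone B. In clone A, 8289 genes (61.4%) passed, 4193 of them up (31.1%) and 4096 down (30.3%). In clone B 5886 genes (43.6%) passed, 2916 up (21.6%) and 2970 down (22%). With library totals the median response of clone A was -0.32 (log2), with 2888 genes up and 5433 down, and that of clone B was -0.18, with 1998 up and 3932 down. With the GC correction 8791 genes passed in clone A and 6896 in clone B. With limma voom, which weights each group by its spread, the order turned, with 6826 in clone A and 7791 in clone B. The median absolute response over all tested genes was 0.76 (log2) in clone A and 0.50 in clone B. Among 4362 genes called in both responses with the same sign, the change was larger in clone A for 3187. These sizes are given for that fit only. Clone A in TIFM spread most and holds the GC-shifted libraries, so they do not settle which clone responded more. In 113 genes the responses were called in opposite directions, 67 rising in clone A while falling in clone B and 46 the other way.

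Of the 1902 genes called higher, 913 rose in clone A and were not called in clone B, 622 rose in both, 233 fell in clone B and were not called in clone A, and 39 fell in both. Of the 1403 called lower, 772 fell in clone A and were not called in clone B, 384 fell in both and 166 rose in clone B and were not called in clone A. Read across the clones, 1469 of the genes called higher were higher in clone A than in clone B in TIFM with no call in regular medium, and 209 were lower in clone A in regular medium with no call in TIFM. In 68 genes clone A was higher in TIFM and lower in regular medium, and in 56 it was lower in TIFM and higher in regular medium. Between the clones, 6192 genes (45.9%) differed in TIFM, 3295 higher in clone A (24.4%) and 2897 lower (21.5%; 2417 and 3713 with library totals), and 1853 (13.7%) in regular medium, 681 higher in clone A (5.05%) and 1172 lower (8.68%). With the GC correction these counts were 5706 in TIFM and 2948 in regular medium.

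The count of differing genes depended on single libraries. It was 6135 without replicate 1 of clone A in TIFM and 1715 without replicate 2 of that group. It was 1991 and 2075 without replicates 2 and 3 of clone A in regular medium, 2085 and 2141 without replicates 1 and 2 of clone B in TIFM, and 1771, 2071 and 1950 without replicates 1, 2 and 3 of clone B in regular medium. Without both GC-shifted libraries, which leaves a single library of clone A in TIFM, 1489 genes were called (10.6%), 797 higher (5.68%) and 692 lower (4.93%). Without the liver-transcript libraries 5837 were called (41.6%), 2906 higher (20.7%) and 2931 lower (20.9%). With a block for the replicate number within each medium 5028 were called (37.3%), 2583 higher (19.1%) and 2445 lower (18.1%), and among the genes named below POSTN and TF lost the call under it. A set of 1287 genes, 826 higher and 461 lower, kept the call and its sign in all 22 alternatives planned, and no gene was called with the opposite sign in any of the 25 alternatives run. Genes named below belong to that set unless an exception is given. The 22 do not include the settings without the GC-shifted or the liver-transcript libraries, and calls lost there are not listed for every gene. Both settings leave a single library of clone A in TIFM. It is replicate 1 without the GC-shifted libraries, and replicate 3, itself GC-shifted, without the liver-transcript libraries. A higher count without the liver-transcript libraries, here or for a gene list, is thus no sign of a stronger difference.

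The genes called higher were richer in GC and shorter than those called lower. Median GC content was 54.7% in genes called higher and 41.5% in genes called lower, against 48.6% in all tested genes, and median exon length was 3836 and 7456 bases, against 5079. After the GC correction 3247 genes (24.1%) were called, 1820 higher (13.5%) and 1427 lower (10.6%), and 2179 of the 3305 kept the call. The medians of GC content were then 47.7% and 47.9%, while those of exon length remained apart, at 4075 and 7192 bases. The 1287 genes that kept the call in all 22 alternatives above were still split by GC content without that correction. Their median was 53.9% in those called higher and 42.5% in those called lower. Leaving out the GC-shifted libraries was not among the 22, so keeping the call in all 22 does not free a gene from the GC shift.

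**Figure D3:**
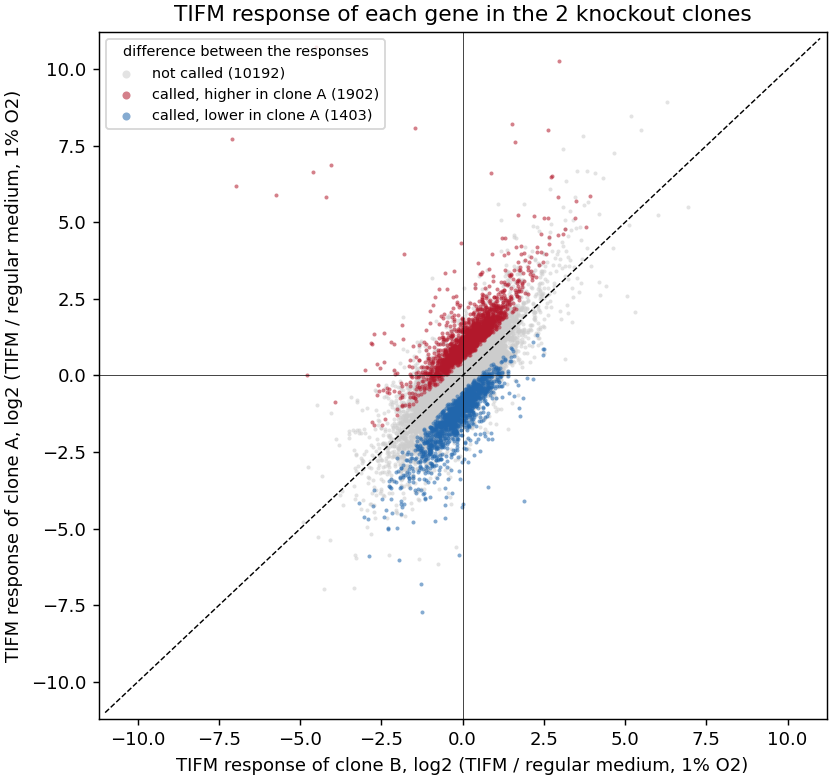
TIFM response of every tested gene in clone A (vertical axis) against that in clone B (horizontal axis), both log2 of TIFM over regular medium at 1% O2, with the line of equal response dashed. The 1902 genes called higher lie above the line and the 1403 called lower lie below it, most of them on the same side of 0 in both clones or close to 0 in clone B.

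ARNT transcripts (chromosome 1, 150809705 to 150876768, minus strand, GRCh38) had 54.3, 58.8 and 52.3 CPM in clone A in TIFM, 67.5, 66.8 and 68.2 in clone A in regular medium, 49.98, 53.3 and 44.5 in clone B in TIFM and 67.4, 61.8 and 65.4 in clone B in regular medium. Libraries in TIFM lay below those in regular medium, the clones overlapped in each medium, and the TIFM response differed by 0.10 ± 0.17 (SE, adjusted p = 0.681), which did not pass. A transcript level does not check a knockout of this kind, since an edited gene is still transcribed.

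HMOX1, heme oxygenase, which breaks down heme and is a classic target of the oxidant-sensing factor NRF2, differed strongly. Its levels (chromosome 22, 35380361 to 35394214, plus strand) were 594, 1125 and 602 CPM in clone A in TIFM, 24.5, 17.6 and 20.1 in clone A in regular medium, 161, 162 and 152 in clone B in TIFM and 68.4, 34.9 and 41.6 in clone B in regular medium. The 3 libraries of clone A in TIFM were the highest of the 12 and those of clone A in regular medium the lowest, with no overlap between groups. Clone A raised it by 5.22 (log2) in TIFM and clone B by 1.71, a difference of 3.51 ± 0.38 (SE, adjusted p = 0.000373). Parental cells had 214, 318 and 159 CPM in TIFM and 94.9, 87.2 and 114 CPM in regular medium.

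Among NRF2 targets, 4 of 17 tested members (23.5%) were called higher and 0 lower, with a median of 0.53. The GC correction gave 5 higher and 0 lower, leaving out the GC-shifted libraries gave 2 and 0, and leaving out the liver-transcript libraries gave 8 and 1, against 7 and 1 with the block within each medium. FTL, the light chain of the iron store ferritin, differed by 1.19 ± 0.25 (SE, adjusted p = 0.00688). Its level was 1837 ± 503 CPM in clone A in TIFM, 574 ± 53.03 in clone A in regular medium, 867 ± 105 in clone B in TIFM and 617 ± 16.9 in clone B in regular medium (mean ± SD, 3 libraries each). SQSTM1, the autophagy receptor p62, differed by 1.47 ± 0.26 (SE, adjusted p = 0.00308), with 22.04% of its exons shared with another gene.

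Metallothioneins, small proteins that bind zinc and copper and that zinc induces through the factor MTF1, were in part called higher. Of the metallothionein and zinc list, 4 of 8 tested members (50%) were called higher and 1 lower, with a median of 1.10. These counts were 3 higher and 0 lower with the GC correction, 3 and 0 without the GC-shifted libraries and 4 and 2 without the liver-transcript libraries. MT2A had 186, 282 and 284 CPM in clone A in TIFM, 49.2, 71.3 and 73.8 in clone A in regular medium, 164, 152 and 163 in clone B in TIFM and 145, 118 and 104 in clone B in regular medium. All 3 libraries of clone A in TIFM lay above all others and all 3 of clone A in regular medium lay below, while the ranges of clone B in its media did not overlap but lay close. Its response was 1.95 in clone A. Clone B's, 0.38, was not called (adjusted p = 0.12), and the responses differed by 1.57 ± 0.27 (SE, adjusted p = 0.00298). MT1X (18.1% of exons shared) differed by 1.55 ± 0.31 (SE, adjusted p = 0.00549) and MT1A by 1.70 ± 0.28 (SE, adjusted p = 0.00245). MT1E differed by 1.30 ± 0.33 (SE, adjusted p = 0.0145) and missed the threshold with the GC correction (adjusted p = 0.053). These genes are near copies of each other, and none of the sources used here says how reads matching several copies were counted.

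The promoters of MT2A and MT1X are shown because both genes were called higher and both hold several copies of the metal response core. They run from 250 bases before to 50 after the start of the gene in the RefSeq table (GRCh38.p14). MT2A lies at chr16:56608334-56608633, plus strand, and MT1X at chr16:56682220-56682519, plus strand. Capitals mark TGCACNC or TGCGCNC on either strand, a search added after the values were seen.
MT2A: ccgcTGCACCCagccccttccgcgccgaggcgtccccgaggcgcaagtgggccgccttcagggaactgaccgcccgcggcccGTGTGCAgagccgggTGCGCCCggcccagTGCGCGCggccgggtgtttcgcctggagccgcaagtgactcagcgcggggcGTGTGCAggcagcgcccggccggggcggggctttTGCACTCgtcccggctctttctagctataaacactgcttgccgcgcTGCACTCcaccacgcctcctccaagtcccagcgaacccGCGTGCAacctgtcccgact
MT1X: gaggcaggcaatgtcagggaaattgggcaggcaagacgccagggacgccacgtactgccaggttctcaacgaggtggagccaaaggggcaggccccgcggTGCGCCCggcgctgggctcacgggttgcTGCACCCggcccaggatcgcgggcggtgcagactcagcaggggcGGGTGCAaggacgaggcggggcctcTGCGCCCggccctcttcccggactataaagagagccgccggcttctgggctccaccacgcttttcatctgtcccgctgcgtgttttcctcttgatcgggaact
MT2A held 8 such matches and MT1X 4, none overlapping another. At least 1 was found in 29.6% of 35116 promoters of the same length. The cores of hypoxia response elements, ACGTG and GCGTG, had 3 matches in each of the 2 promoters, and 2 of those in MT2A overlapped a metal response core. ACGTG was found in 21.4% of all promoters and GCGTG in 36.5%. A match is a description of these letters and shows no binding.

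The ATF4 amino acid response was raised in both clones. In clone A 27 of 37 tested members rose and 2 fell, with a median response of 1.32, and in clone B 28 rose and 1 fell, with a median of 0.92. Of the differences between the clones, 10 were called higher (27.03%) and 3 lower, with a median of 0.31. GC-corrected counts were 7 higher and 3 lower, and there were 3 and 3 without the GC-shifted libraries and 14 and 4 without the liver-transcript libraries. ATF3, a stress-induced transcription factor downstream of ATF4, had 148, 188 and 172 CPM in clone A in TIFM, 12.1, 17.03 and 21.9 in clone A in regular medium, 73.5, 71.7 and 61.3 in clone B in TIFM and 24.3, 25.3 and 24.4 in clone B in regular medium. Every library in TIFM lay above every library in regular medium, and clone A lay above clone B in TIFM and below it in regular medium. The difference was 1.84 ± 0.26 (SE, adjusted p = 0.00136). Parental cells had 56.8, 59.04 and 52.1 CPM in TIFM and 21.5, 16.9 and 20.6 CPM in regular medium.

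SLC3A2, the heavy chain of the cystine and large neutral amino acid transporters, rose in both clones, by 3.13 in A and 1.71 in B, a difference of 1.41 ± 0.25 (SE, adjusted p = 0.00303). XPOT, the exporter of tRNA from the nucleus, went the other way. It had 188, 122 and 151 CPM in clone A in TIFM, 411, 441 and 458 in clone A in regular medium, 297, 319.9 and 366 in clone B in TIFM and 351, 351 and 341 in clone B in regular medium, lowest in the 3 libraries of clone A in TIFM, and differed by -1.42 ± 0.21 (SE, adjusted p = 0.00163). VLDLR, a lipoprotein receptor and the remaining named gene of this list, rose less in clone A (1.31) than in clone B (2.29), a difference of -0.98 ± 0.20 (SE, adjusted p = 0.00627).

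ATF3 has a pair of entries in the promoter table, and the one at chr1:212565157-212565456, plus strand is shown because it holds the ATF4 element TGATGNAA, in capitals.
ATF3: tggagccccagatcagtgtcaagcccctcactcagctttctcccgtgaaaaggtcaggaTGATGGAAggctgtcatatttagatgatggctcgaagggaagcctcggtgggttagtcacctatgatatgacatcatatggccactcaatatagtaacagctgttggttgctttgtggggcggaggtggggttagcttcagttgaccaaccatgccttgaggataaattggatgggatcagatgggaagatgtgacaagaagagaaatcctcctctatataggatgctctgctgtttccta
The other entry holds no match on either strand. TGATGNAA was found in 3.62% of all promoters, and ACGTG and GCGTG were not found in either ATF3 window.

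The unfolded protein response was raised in both clones to a similar median, 0.68 in clone A and 0.70 in clone B. Of 21 members, 15 rose and 2 fell in clone A, and 16 rose and 1 fell in clone B. Their differences were called higher for 3 (14.3%) and lower for 2, against 14.1% higher among all genes. There were 2 higher and 1 lower (median 0.18) with the GC correction, 2 and 0 without the GC-shifted libraries and 4 and 4 without the liver-transcript libraries, against 4 and 4 with the block within each medium. XBP1, a transcription factor of that response, rose in both, by 3.07 in A and 1.90 in B (difference 1.17 ± 0.20 (SE, adjusted p = 0.00306)). HERPUD1, which acts in the breakdown of endoplasmic reticulum proteins, differed by 1.08 ± 0.17 (SE, adjusted p = 0.00227). Of cytosolic heat shock genes, 6 of 12 tested members (50%) were called higher and 0 lower, with a median of 0.83. Call counts were 4 higher and 0 lower with the GC correction, 2 and 0 without the GC-shifted libraries and 8 and 1 without the liver-transcript libraries. BAG3, a partner of HSP70, had 158, 216 and 223 CPM in clone A in TIFM, 96.5, 87.3 and 96.2 in clone A in regular medium, 114, 126 and 119.6 in clone B in TIFM and 139, 127 and 131 in clone B in regular medium. It rose in clone A (1.09) and was not called in clone B (-0.14, adjusted p = 0.435), and the difference was 1.23 ± 0.19 (SE, adjusted p = 0.00213). HSPA8, the constitutive HSP70, differed by 1.03 ± 0.24 (SE, adjusted p = 0.0104).

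**Figure D4:**
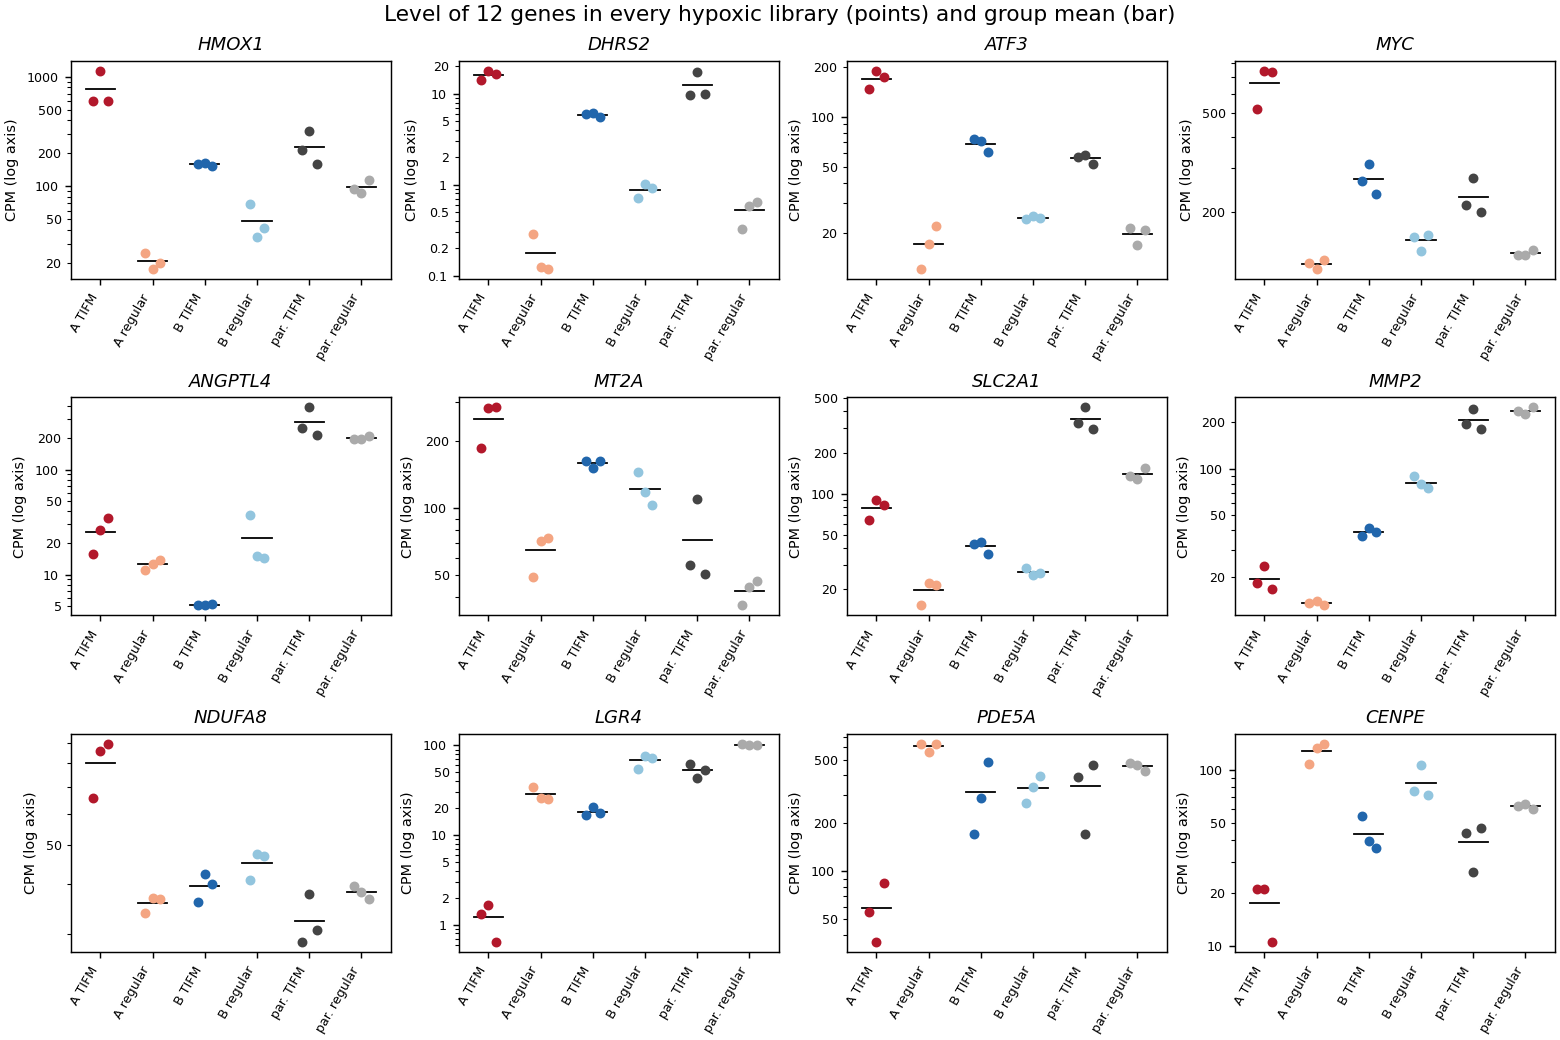
Level of 12 genes (CPM, log axis) in every hypoxic library of clone A, clone B and parental cells (par.), each in TIFM and in regular medium, with points for libraries and bars for the means of 3. HMOX1, ATF3, MYC and MT2A stand highest in clone A in TIFM, while LGR4, PDE5A and CENPE stand lowest there.

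HIF targets outside glycolysis were mixed within each clone, with 15 rising and 6 falling of 30 in clone A and 12 rising and 6 falling in clone B. Of the differences, 9 were called higher (30.0%) and 2 lower (6.67%), with a median of 0.27. Counts became 8 higher and 1 lower with the GC correction, 5 and 1 without the GC-shifted libraries and 9 and 5 without the liver-transcript libraries.

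ANGPTL4, a secreted inhibitor of lipoprotein lipase, had 15.7, 26.3 and 34.9 CPM in clone A in TIFM, 11.1, 12.6 and 13.9 in clone A in regular medium, 5.11, 5.08 and 5.23 in clone B in TIFM and 36.9, 14.95 and 14.3 in clone B in regular medium. It rose in clone A (1.03) and fell in clone B (-2.10), where replicate 1 in regular medium was the highest of that group, and the difference was 3.13 ± 0.48 (SE, adjusted p = 0.00197). Parental levels were 250.2, 391 and 212 CPM in TIFM and 196, 197 and 210.5 CPM in regular medium, above every library of either clone.

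Glycolysis and glucose uptake differed by a median of 0.65, with 7 of 18 members called higher (38.9%) and 1 lower. The GC correction gave 6 higher and 1 lower, leaving out the GC-shifted libraries gave 2 and 1, and leaving out the liver-transcript libraries gave 11 and 1. In clone A 7 rose and 4 fell, whereas in clone B 3 rose and 11 fell. SLC2A1, the glucose transporter GLUT1, had 64.7, 89.7 and 83.02 CPM in clone A in TIFM, 15.3, 22.4 and 21.6 in clone A in regular medium, 42.9, 44.7 and 36.1 in clone B in TIFM and 28.6, 25.5 and 26.5 in clone B in regular medium, with no overlap between groups, and differed by 1.38 ± 0.24 (SE, adjusted p = 0.00303). GPI, glucose-6-phosphate isomerase, rose in clone A (0.68) and fell in clone B (-0.45), a difference of 1.13 ± 0.22 (SE, adjusted p = 0.00505). PFKFB3, which makes the activator of phosphofructokinase, differed by 0.89 ± 0.18 (SE, adjusted p = 0.00557).

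TXNIP, a glucose-induced arrestin that limits glucose uptake, rose steeply in both clones. It had 239, 304 and 139 CPM in clone A in TIFM, 3.82, 3.46 and 4.39 in clone A in regular medium, 131, 53.4 and 51.9 in clone B in TIFM and 4.11, 5.82 and 5.61 in clone B in regular medium. The responses were 5.87 for clone A and 3.93 for clone B, a difference of 1.94 ± 0.49 (SE, adjusted p = 0.0147). That difference was 1.17 without the 3 libraries with liver transcripts (adjusted p = 0.211) and 2.01 without replicates 2 and 3 of clone A in TIFM (adjusted p = 0.0712). Of the 9 TXNIP and ARRDC genes, 3 were called higher (33.3%) and none lower, among them ARRDC2 at 1.36 ± 0.26 (SE, adjusted p = 0.00387). These counts were 3 higher and 0 lower with the GC correction, 1 and 0 without the GC-shifted libraries and 3 and 0 without the liver-transcript libraries.

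Of AP-1 and EGR factors, 6 of 15 tested members (40%) were called higher and 0 lower, with a median of 0.68. GC-corrected counts were 4 higher and 0 lower, and there were 4 and 0 without the GC-shifted libraries and 7 and 0 without the liver-transcript libraries. MYC, which drives growth and ribosome synthesis, had 521, 743 and 736 CPM in clone A in TIFM, 123, 117 and 127 in clone A in regular medium, 265, 311 and 235 in clone B in TIFM and 158, 139 and 161 in clone B in regular medium. The 3 libraries of clone A in TIFM were the highest of the 12. The rise was 2.44 for clone A and 0.82 for clone B, a difference of 1.62 ± 0.22 (SE, adjusted p = 0.000997). Parental cells had 213, 273 and 199.8 CPM in TIFM and 134, 133 and 141 CPM in regular medium. JUN rose in clone A (1.30) and was not called in clone B (-0.33, adjusted p = 0.251), a difference of 1.63 ± 0.32 (SE, adjusted p = 0.00502). Among cytokine and NF-kB target genes, 2 of 18 tested members (11.1%, against 14.1% of all genes) were called higher and 0 lower (median 0.06). There were 2 higher and 1 lower with the GC correction, 1 and 1 (median -0.08) without the GC-shifted libraries and 3 and 0 without the liver-transcript libraries, against 2 and 2 (median -0.01) with the block within each medium. The called pair were cytokines of the IL6 family. LIF differed by 1.35 ± 0.28 (SE, adjusted p = 0.00615). IL11 differed by 1.65 ± 0.38 (SE, adjusted p = 0.00979), against an adjusted p of 0.0782 without replicates 2 and 3 of clone A in TIFM.

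Genes of ribosome synthesis rose in both clones. Of 22 ribosome biogenesis factors, 19 rose and 1 fell in clone A (median 1.47), and 16 rose and 2 fell in clone B (median 0.76). The difference was called higher for 12 (54.5%) and lower for none, with a median of 0.66. Call counts were 10 higher and 0 lower with the GC correction, 6 and 0 without the GC-shifted libraries and 12 and 1 without the liver-transcript libraries. PES1, which acts in maturation of the large subunit, had 316, 489 and 561 CPM in clone A in TIFM, 65.6, 76.2 and 79.7 in clone A in regular medium, 198, 239 and 243 in clone B in TIFM and 106, 85.9 and 91.5 in clone B in regular medium. TIFM lay above regular medium in each clone without overlap, and the difference was 1.37 ± 0.26 (SE, adjusted p = 0.00408). RRP9 and UTP4, of the small subunit processome, differed by 1.58 ± 0.29 (SE, adjusted p = 0.00362) and 1.34 ± 0.25 (SE, adjusted p = 0.00387).

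Cytosolic ribosomal proteins were also counted. In clone A 31 of 41 rose and 2 fell (median 1.14), and in clone B 16 rose and 1 fell (median 0.40). The difference was called higher for 17 (41.5%, against 14.1% of all genes) and lower for 1, with a median of 0.70. Counts became 10 higher and 0 lower with the GC correction, 1 and 0 without the GC-shifted libraries and 32 and 1 without the liver-transcript libraries. Without the GC-shifted libraries the share called higher was below that of all genes in that setting, and the median difference of the list was 0.21. In all 22 alternatives planned, 6 kept the call. RPL24 had 1578, 1738 and 2282 CPM in clone A in TIFM, 438, 476 and 531 in clone A in regular medium, 805, 917 and 1026 in clone B in TIFM and 392, 489 and 435 in clone B in regular medium and differed by 0.89 ± 0.22 (SE, adjusted p = 0.0137). RPL35 differed by 1.27 ± 0.33 (SE, adjusted p = 0.0168), against an adjusted p of 0.106 without the GC-shifted libraries. Ribosomal proteins, like FTL, HSPA8 and KRT18, have many processed copies in the genome, so their counts depend on how reads matching several places were treated.

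The respiratory chain differed in opposite directions by genome. Of 37 nuclear-encoded subunits, 20 rose and 2 fell in clone A, whereas 2 rose and 11 fell in clone B. The difference was called higher for 19 (51.4%) and lower for none, with a median of 0.72. The GC correction gave 20 higher and 0 lower, leaving out the GC-shifted libraries gave 6 and 0, and leaving out the liver-transcript libraries gave 28 and 0. NDUFA8, a subunit of complex I, had 65.7, 85.99 and 89.6 CPM in clone A in TIFM, 33.8, 37.03 and 36.7 in clone A in regular medium, 36.1, 42.4 and 40.1 in clone B in TIFM and 40.99, 47.5 and 46.99 in clone B in regular medium. The libraries of clone A in TIFM were the highest of the 12, and the difference was 1.36 ± 0.20 (SE, adjusted p = 0.00166). ATP5MC1, of the ATP synthase ring, differed by 1.36 ± 0.24 (SE, adjusted p = 0.00327), and UQCRFS1, the iron-sulfur subunit of complex III, by 1.02 ± 0.19 (SE, adjusted p = 0.00365).

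Transcripts of mitochondrial DNA went the other way. In clone A 10 of 13 fell and none rose, and in clone B 1 fell and none rose. The difference was called lower for 9 (69.2%) and higher for none, with a median of -0.74. These counts were 0 higher and 4 lower with the GC correction, 0 and 6 without the GC-shifted libraries and 0 and 7 without the liver-transcript libraries. The GC-corrected median was -0.45. MT-CO3, a subunit of complex IV, had 1863, 1745 and 2254 CPM in clone A in TIFM, 6015, 4629.8 and 4418 in clone A in regular medium, 2045, 2397 and 2902 in clone B in TIFM and 3371, 3163 and 3626 in clone B in regular medium and differed by -0.89 ± 0.23 (SE, adjusted p = 0.0162). MT-CO1 differed by -0.75 ± 0.20 (SE, adjusted p = 0.0173). MT-ND2, of complex I, differed by -0.75 ± 0.20 (SE, adjusted p = 0.0166) and had an adjusted p of 0.175 with the GC correction.

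Of 23 mitosis genes, 14 fell and 1 rose in clone A, and 13 fell and 1 rose in clone B. The difference was called lower for 9 (39.1%, against 10.4% of all genes) and higher for 1, with a median of -0.38. GC-corrected counts were 0 higher and 6 lower, and there were 0 and 1 without the GC-shifted libraries and 2 and 9 without the liver-transcript libraries. The GC-corrected median was -0.10. Without the GC-shifted libraries the share called lower was near that of all genes in that setting, and the median was -0.17. CENPE, the kinetochore motor, had 21.2, 20.9 and 10.6 CPM in clone A in TIFM, 108, 134 and 140.5 in clone A in regular medium, 54.7, 39.5 and 35.9 in clone B in TIFM and 75.4, 106 and 71.9 in clone B in regular medium. Its lowest libraries were those of clone A in TIFM, replicate 3 below the other 2, and the difference was -1.89 ± 0.35 (SE, adjusted p = 0.00365). KIF23, a motor of cell division, differed by -1.02 ± 0.26 (SE, adjusted p = 0.0157), against an adjusted p of 0.0927 without the GC-shifted libraries.

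Of 30 DNA replication genes, 16 rose and 6 fell in clone A, and 12 rose and 2 fell in clone B. The difference was called higher for 5 (16.7%) and lower for 1, against 14.1% higher among all genes. There were 8 higher and 3 lower (26.7% higher, against 13.5% of all genes) with the GC correction, 2 and 0 without the GC-shifted libraries and 8 and 2 without the liver-transcript libraries. MCM2, of the replicative helicase, had 496, 822 and 783 CPM in clone A in TIFM, 92.5, 132 and 135 in clone A in regular medium, 238, 265 and 236 in clone B in TIFM and 122, 132 and 127 in clone B in regular medium and differed by 1.59 ± 0.26 (SE, adjusted p = 0.00236), with 23.6% of its exons shared. RFC2, of the clamp loader, differed by 0.98 ± 0.19 (SE, adjusted p = 0.00429). Among p53-responsive genes and CDK inhibitors, 5 of 18 tested members (27.8%) were called higher and 2 lower, with a median of 0.14. Call counts were 2 higher and 2 lower (11.1% higher, against 13.5% of all genes) with the GC correction, 3 and 1 without the GC-shifted libraries and 5 and 5 (median -0.11) without the liver-transcript libraries, against 5 and 6 with the block within each medium. CDKN1A, the CDK inhibitor p21, had 95.9, 163 and 192 CPM in clone A in TIFM, 70.2, 71.7 and 70.4 in clone A in regular medium, 85.8, 99.4 and 102 in clone B in TIFM and 195, 157 and 151 in clone B in regular medium. It rose in clone A (1.08) and fell in clone B (-0.81), a difference of 1.89 ± 0.29 (SE, adjusted p = 0.0018). In TIFM the ranges of the clones overlapped, and in regular medium clone A lay below clone B. Parental levels were 54.1, 71.9 and 46.6 CPM in TIFM and 99.1, 105 and 107 CPM in regular medium. GADD45B, a stress-induced growth regulator, differed by 1.42 ± 0.26 (SE, adjusted p = 0.00365). MDM2, the ubiquitin ligase of p53, differed by -1.13 ± 0.24 (SE, adjusted p = 0.00729), the opposite sign.

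Cholesterol synthesis and uptake fell in both clones. Of 22 members 16 fell and 3 rose in clone A (median -1.21), and 20 fell and 1 rose in clone B (median -1.51). The difference was called higher for 7 (31.8%) and lower for none, with a median of 0.33. Counts became 6 higher and 0 lower with the GC correction, 6 and 0 without the GC-shifted libraries and 8 and 4 without the liver-transcript libraries. NSDHL and DHCR7 are enzymes of the later steps of synthesis. NSDHL had 107, 162 and 174 CPM in clone A in TIFM, 114, 96.8 and 103 in clone A in regular medium, 58.3, 68.9 and 68.8 in clone B in TIFM and 101, 97.04 and 105 in clone B in regular medium. The ranges of clone A in the 2 media overlapped, and clone B in TIFM lay below all other libraries. The gene rose in clone A (0.50) and fell in clone B (-0.63), a difference of 1.13 ± 0.23 (SE, adjusted p = 0.00624). DHCR7 fell in both clones and differed by 1.15 ± 0.25 (SE, adjusted p = 0.00812).

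Matrix and cell-state genes differed in part. Of collagens and matrix genes, 4 of 24 tested members (16.7%, against 14.1% of all genes) were called higher and 1 lower (median 0.53). The GC correction gave 5 higher and 1 lower, leaving out the GC-shifted libraries gave 2 and 1, and leaving out the liver-transcript libraries gave 11 and 1, against 7 and 1 with the block within each medium. SPARC, a matrix protein that binds collagen, had 5.59, 8.72 and 12.7 CPM in clone A in TIFM, 12.4, 16.5 and 13.2 in clone A in regular medium, 2.91, 3.19 and 2.71 in clone B in TIFM and 19.8, 16.5 and 18.6 in clone B in regular medium, and fell by less in clone A (-0.65) than in clone B (-2.64), a difference of 1.99 ± 0.34 (SE, adjusted p = 0.00296). BGN, the proteoglycan biglycan, differed by 1.51 ± 0.38 (SE, adjusted p = 0.0141), against an adjusted p of 0.112 without replicates 2 and 3 of clone A in TIFM. In the mesenchymal list 6 of 17 tested members (35.3%) were called higher and 2 lower, with a median of 0.34. These counts were 6 higher and 3 lower with the GC correction, 5 and 1 without the GC-shifted libraries and 6 and 2 without the liver-transcript libraries. MMP2, a secreted collagenase, had 18.3, 23.4 and 16.6 CPM in clone A in TIFM, 13.6, 13.9 and 13.1 in clone A in regular medium, 36.8, 41.1 and 39.1 in clone B in TIFM and 89.1, 79.5 and 74.7 in clone B in regular medium. The 4 groups did not overlap: clone A lay below clone B in both media, TIFM above regular medium in clone A and below it in clone B. The difference was 1.58 ± 0.21 (SE, adjusted p = 0.00095). SNAI1, a repressor of E-cadherin, had 19.8, 35.2 and 64.7 CPM in clone A in TIFM, 7.16, 8.13 and 8.32 in clone A in regular medium, 16.01, 17.7 and 21.4 in clone B in TIFM and 24.8, 17.8 and 19.8 in clone B in regular medium. The libraries of clone A in TIFM ranged over more than 3 times, those of clone B in the 2 media overlapped, and the difference was 2.51 ± 0.44 (SE, adjusted p = 0.00303). Parental SNAI1 stood at 8.46, 11.9 and 8.99 CPM in TIFM and 10.96, 10.95 and 11 CPM in regular medium.

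Epithelial markers moved both ways: 4 of 19 tested members (21.1%) were called higher and 6 lower, with a median of -0.47, with 31.6% lower. GC-corrected counts were 3 higher and 5 lower, and there were 2 and 1 without the GC-shifted libraries and 5 and 7 without the liver-transcript libraries. KRT18, a simple-epithelium keratin with 16.3% of its exons shared, had 418, 655 and 924 CPM in clone A in TIFM, 718, 514 and 552 in clone A in regular medium, 356, 501 and 639 in clone B in TIFM and 2527, 1793 and 2169 in clone B in regular medium. In TIFM the clones' ranges overlapped, and in regular medium clone A lay far below clone B, so the response was not called in clone A (0.16, adjusted p = 0.608) and fell in clone B (-2.12). The difference was 2.28 ± 0.37 (SE, adjusted p = 0.00236). KRT7 differed by 1.35 ± 0.27 (SE, adjusted p = 0.00569). AGR2, a disulfide isomerase of mucus-secreting cells and a marker of the classical subtype, had 2.09, 2.65 and 3.43 CPM in clone A in TIFM, 40.1, 31.1 and 31.3 in clone A in regular medium, 9.84, 11.4 and 12.8 in clone B in TIFM and 36.2, 46.7 and 45.6 in clone B in regular medium. It fell in both clones, further in clone A, with a difference of -1.74 ± 0.27 (SE, adjusted p = 0.0021).

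**Figure D5:**
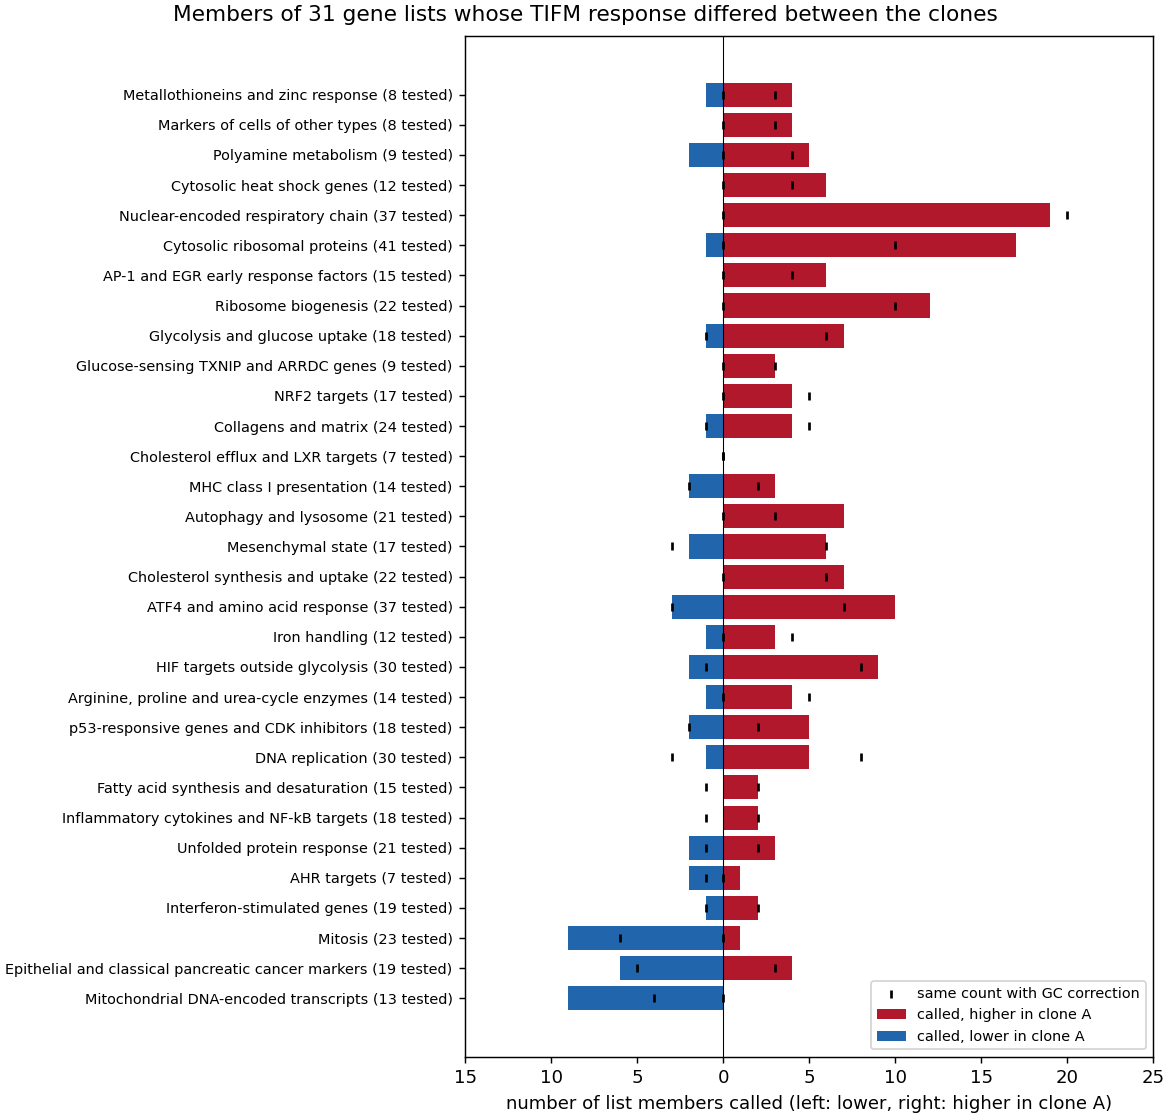
Number of tested members of each of 31 gene lists called lower (left bars) or higher (right bars) in the TIFM response of clone A than of clone B, ordered by the median difference, with black ticks for the counts after the GC correction. The nuclear-encoded respiratory chain (19 higher), ribosomal proteins (17) and ribosome biogenesis (12) reach farthest right, and mitosis and mitochondrial DNA-encoded transcripts (9 lower each) farthest left.

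Other large differences belonged to genes outside these lists. DHRS2, a dehydrogenase of the short-chain family (chromosome 14, 23630115 to 23645639, plus strand), had 14.3, 17.8 and 16.6 CPM in clone A in TIFM, 0.286, 0.124 and 0.118 in clone A in regular medium, 5.94, 6.13 and 5.61 in clone B in TIFM and 0.705, 1.01 and 0.912 in clone B in regular medium. It was near 0 in clone A in regular medium and the highest of the 12 in clone A in TIFM, with no overlap between groups. The difference was 3.76 ± 0.38 (SE, adjusted p = 0.000373), and parental cells had 9.57, 17.5 and 9.95 CPM in TIFM and 0.328, 0.582 and 0.650 CPM in regular medium. NKAIN4, a membrane protein that interacts with the sodium pump, rose in clone A (1.64) and fell in clone B (-1.86). Its levels were 1.04, 2.53 and 4.32 CPM in clone A in TIFM, 1.15, 0.742 and 0.590 in clone A in regular medium, 3.48, 3.69 and 3.84 in clone B in TIFM and 11.3, 14.7 and 14.1 in clone B in regular medium, and the difference was 3.51 ± 0.53 (SE, adjusted p = 0.00184). KRT75, a keratin of hair and nail, had 6, 10.6 and 7.40 CPM in clone A in TIFM, 0.764, 0.587 and 0.236 in clone A in regular medium, 7.83, 6.07 and 7 in clone B in TIFM and 3.41, 1.97 and 3.20 in clone B in regular medium, with the clones overlapping in TIFM and apart in regular medium, and a difference of 2.63 ± 0.47 (SE, adjusted p = 0.00318).

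Several genes near the top rested on few counts or few libraries. ASTL, an oocyte metalloprotease, had 3.37, 5.17 and 6.70 CPM in clone A in TIFM and no count in clone A in regular medium, at least 159-fold higher in TIFM against a floor of 3 counts over the group. In clone B it had 1.34, 2.68 and 2.49 CPM in TIFM and 0.470, 0.209 and 0.138 CPM in regular medium, 7.93-fold higher in TIFM (95% exact counting interval 5.31 to 12.3). The adjusted p of the difference was 0.0035. IFITM10 (2.98 ± 0.82, 22.2% of exons shared) lost its call without replicate 2 (adjusted p = 0.055) or replicate 3 (adjusted p = 0.052) of clone A in regular medium. With no filter on low counts IFITM10 just missed the threshold (0.0501). TRPV6, an epithelial calcium channel, was under 0.2 CPM in every library of clone A and had 1.05, 1.42 and 1.43 CPM in TIFM and 9.99, 7.82 and 6.38 CPM in regular medium in clone B. Its difference of 3.02 ± 0.75 lost its call without replicate 3 of clone A in TIFM (adjusted p = 0.067) and with limma voom (0.082). POSTN, the matrix protein periostin, had 0.472, 7.74 and 4.62 CPM in clone A in TIFM, 8.94, 6.61 and 7.43 in clone A in regular medium, 1.21, 0.203 and 0.791 in clone B in TIFM and 13.2, 6.83 and 13.95 in clone B in regular medium. Its difference of 3.07 ± 0.93 (SE, adjusted p = 0.0307) lost the call in 9 of the 12 alternatives that leave out 1 library, all but those without replicate 1 of clone A in TIFM, replicate 1 of clone B in TIFM and replicate 2 of clone B in regular medium. The adjusted p was 0.12 and 0.13 without replicates 2 and 3 of clone A in TIFM, 0.055, 0.065 and 0.061 without replicates 1, 2 and 3 of clone A in regular medium, 0.072 and 0.05003 without replicates 2 and 3 of clone B in TIFM and 0.067 and 0.066 without replicates 1 and 3 of clone B in regular medium. With the block within each medium it was 0.121. The difference was -0.084 without replicates 2 and 3 of clone A in TIFM.

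The liver genes APOB, AFP, ALB and TF were also called higher, and they follow the libraries named above. APOB, the apolipoprotein of LDL, had 10.4, 10.3 and 0 CPM in clone A in TIFM, no count in clone A in regular medium, 0.0320, 0.0678 and 0 CPM in clone B in TIFM and 0.0294, 0 and 2.54 CPM in clone B in regular medium. AFP, alpha-fetoprotein, had 8.36, 6.88 and 0.0497 CPM in clone A in TIFM and 0, 0.0618 and 0 CPM in clone A in regular medium. In clone B it had no count in TIFM and 0, 0 and 1.66 CPM in regular medium. ALB, albumin, had 7.65, 8.47 and 0 CPM in clone A in TIFM and 0.0588, 0.0597 and 3.23 CPM in clone B in regular medium, and at most 0.118 CPM in any library of the other two groups. Adjusted p was 0.0122 for APOB, 0.013 for AFP and 0.00998 for ALB. Without the 3 libraries with liver transcripts APOB, AFP and ALB did not pass the filter on low counts. TF, transferrin, then differed by 0.28, against 3.89 with them (adjusted p = 0.023). The list of transcripts that picked those libraries holds APOB, AFP, ALB and TF, so this outcome was set in advance and is no test. Leaving out replicate 3 of clone B in regular medium ended the calls of APOB (adjusted p = 0.405), AFP (0.99999) and ALB (0.19), and leaving out 1 library ended that of TF for replicate 2 of clone A in TIFM (0.074), replicates 2 and 3 of clone A in regular medium (0.054 and 0.056) or replicate 3 of clone B in regular medium (0.089). APOB and AFP also missed the threshold with limma voom (0.157 and 0.102), with no filter (0.0795 each) and without the GC-shifted libraries (0.0659 and 0.0589), and just missed it with the replicate block over all 12 libraries (0.0512 and 0.0533). ALB and TF missed it with limma voom (0.27 and 0.0697), and TF with the block within each medium (0.0596).

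ALB was 1 of 4 members called higher among the 8 tested markers of other cells, the others being CD68, VWF and LYZ. There were 3 higher and 0 lower with the GC correction, 1 and 0 without the GC-shifted libraries and 2 and 0 without the liver-transcript libraries. VWF, an endothelial clotting factor, had 0.775, 0.774 and 0.695 CPM in clone A in TIFM, 0.191, 0.0618 and 0.0590 in clone A in regular medium, 0.0959, 0.136 and 0.0753 in clone B in TIFM and 0.0881, 0.119 and 0.221 in clone B in regular medium, a difference of 3.29 ± 0.83 (SE, adjusted p = 0.0146) that lost its call without replicate 3 of clone B in regular medium (adjusted p = 0.059). LYZ, lysozyme of myeloid cells, had 0.472, 0.204 and 1.79 CPM in clone A in TIFM, 0.446, 0.340 and 0.147 in clone A in regular medium, 0.0320, 0 and 0.151 in clone B in TIFM and 0.411, 0.507 and 0.304 in clone B in regular medium. Its difference of 4.08 ± 1.21 (SE, adjusted p = 0.0283) lost the call in 7 of the 12 alternatives that leave out 1 library. Its adjusted p was 0.058 without replicate 3 of clone A in TIFM, 0.052 and 0.06 without replicates 2 and 3 of clone A in regular medium, 0.068 and 0.067 without replicates 1 and 2 of clone B in TIFM and 0.058 and 0.061 without replicates 1 and 2 of clone B in regular medium. CD68, a macrophage and lysosome marker, differed by 0.96 ± 0.27 (SE, adjusted p = 0.0236), and by 0.41 without the GC-shifted libraries. CD68 had an adjusted p of 0.0615 with the GC correction. It also missed the threshold without replicate 2 of clone A in TIFM (0.061), replicate 1 of clone A in regular medium (0.058), replicate 1 of clone B in TIFM (0.056) or replicates 1 or 3 of clone B in regular medium (0.0525 and 0.0504). The part of other cells in the results was not tested.

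Genes called lower included signalling and adhesion genes that fell steeply in clone A. PDE5A, the cGMP phosphodiesterase (chromosome 4, 119494395 to 119628991, minus strand), had 55.4, 36.1 and 84.6 CPM in clone A in TIFM, 627, 562 and 630.4 in clone A in regular medium, 171, 289.8 and 484 in clone B in TIFM and 269, 335 and 398 in clone B in regular medium. Its 3 lowest libraries were those of clone A in TIFM, while the ranges of clone B in the 2 media overlapped. It fell by 3.37 (log2) in clone A and was not called in clone B (-0.09, adjusted p = 0.852), a difference of -3.28 ± 0.47 (SE, adjusted p = 0.0014). LGR4, a receptor for R-spondins that potentiates Wnt signalling (chromosome 11, 27365961 to 27472775, minus strand), had 1.31, 1.67 and 0.645 CPM in clone A in TIFM, 34.3, 26.1 and 25.2 in clone A in regular medium, 16.6, 20.5 and 17.8 in clone B in TIFM and 55.1, 76.1 and 73.04 in clone B in regular medium. It fell in both clones with no overlap between any of the groups, and further in clone A, with a difference of -2.63 ± 0.33 (SE, adjusted p = 0.000913). Parental LGR4 stood at 61.8, 43.9 and 53.7 CPM in TIFM and 105, 102 and 101 CPM in regular medium.

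SEMA3D, a secreted guidance protein, had 0.303, 0.163 and 0.546 CPM in clone A in TIFM, 6.11, 4.70 and 4.63 in clone A in regular medium, 0.384, 0.474 and 0.640 in clone B in TIFM and 0.499, 0.716 and 0.912 in clone B in regular medium, and so was higher in clone A in regular medium than in the other groups, with a difference of -3.44 ± 0.54 (SE, adjusted p = 0.00213). MAP2K6, a kinase upstream of p38, had 0.0337, 0.0815 and 0 CPM in clone A in TIFM, which is 3 counts over the group, and 4.65, 2.04 and 2.03 CPM in clone A in regular medium. The ratio was 0.0140 (95% exact counting interval 0.00287 to 0.0414). In clone B it had 3.42, 3.19 and 1.66 CPM in TIFM and 6.32, 12 and 14.03 CPM in regular medium, a ratio of 0.259 (0.224 to 0.297), and the adjusted p of the difference was 0.0089. It was 0.262 with limma voom and 0.108 without replicates 2 and 3 of clone A in TIFM.

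TRIM2, a ubiquitin ligase, differed by -2.92 ± 0.46 (SE, adjusted p = 0.00212), and STOX1, a DNA-binding protein, by -2.69 ± 0.49 (SE, adjusted p = 0.00333). MTUS1, a microtubule-associated protein, fell in clone A (-1.96) and rose in clone B (0.68), with a difference of -2.64 ± 0.35 (SE, adjusted p = 0.00095). COX20, an assembly factor of complex IV, differed by -3.13 ± 0.43 (SE, adjusted p = 0.00114), but 72.0% of its exons are shared with another gene. TET1, an enzyme that oxidises methylcytosine, differed by -2.78 ± 0.61 (SE, adjusted p = 0.00792) and had an adjusted p of 0.076 without the 3 libraries with liver transcripts and of 0.073 with limma voom. CDK15 (-2.73 ± 0.70, adjusted p = 0.0158) had 10 counts in clone A in TIFM, and its adjusted p was 0.13 without replicates 2 and 3 of that group and 0.11 with limma voom. PLA2R1, the phospholipase A2 receptor, differed by -2.64 ± 0.60 (SE, adjusted p = 0.00952), and had an adjusted p of 0.15 with limma voom. ITGB8, an integrin subunit, differed by -3.24 ± 0.89 (SE, adjusted p = 0.0209). It lost the call without replicate 2 (adjusted p = 0.055) or replicate 3 (0.12) of clone A in TIFM. The same held without replicate 1 of clone A in regular medium (0.053) and with the GC correction (0.11). Limma voom (0.45) and no filter on low counts (0.0596) also ended the call.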

How the data were processed

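PolyA RNA of 27 libraries was sequenced, and the table deposited by the authors holds unnormalized counts of reads for each gene. HISAT2, featureCounts and GRCh38 appear in the submitters' processing notes, and neither versions nor the handling of strand or of reads matching several places is given in the sources used here. Of 21487 Ensembl identifiers, 21409 were found in GENCODE v29 (GRCh38), which gave positions, exon overlap and the GC content of the longest transcript.

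The 12 hypoxic libraries of both clones were fitted with edgeR 4.0.16 (R 4.3.3): TMM factors from all 27 libraries, filterByExpr (minimum count 10, total 15), 1 mean per group, robust quasi-likelihood F tests, Benjamini-Hochberg adjustment over 13497 genes, called under 0.05. CPM are counts divided by the TMM-scaled library size. The GC correction subtracts each library's trend over GC content. Counting intervals leave out every error but that of counting, as no molecular identifiers were used.

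Named genes were ARNT, the 12 largest differences each way among called genes reaching 5 CPM in a group, and up to 4 called members of each of 31 lists by adjusted p. Some genes that meet this rule are not reported here. The members, lists and rule were chosen with earlier results of these data known. Alternatives were DESeq2 1.42.0, limma voom 3.58.1, other scalings and filters, a replicate block, the GC correction and each library left out. Other alternatives, chosen after seeing the data, left out the GC-shifted or the liver-transcript libraries or set the block within each medium. Over the 4 groups replicate numbers did not pair the samples, as 7 of 18 same-numbered pairs had deviations correlating over 0.1. All 3 pairs of the TIFM libraries of the clones did (0.17 to 0.59). However, replicate 2 of clone A in TIFM correlated more with replicate 1 of clone B in TIFM (0.29) than with replicate 2. The numbers thus pair those libraries only in part by the data, and the block within each medium is given beside the results it changes.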

Additional observations from a re-analysis of the deposited data

Results flagged for a closer look

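The TIFM response differed between the 2 clones by a test of the difference itself for 3305 genes. Among the genes named above, those with a higher response in clone A differed as follows, as the log2 difference. The difference was 10.02 for ALB, 4.08 for LYZ, 3.89 for TF, 3.76 for DHRS2, 3.51 for HMOX1, 3.51 for NKAIN4, 3.29 for VWF, 3.13 for ANGPTL4 and 3.07 for POSTN. It was 3.02 for TRPV6, 2.98 for IFITM10, 2.63 for KRT75, 2.51 for SNAI1, 2.28 for KRT18, 1.99 for SPARC, 1.94 for TXNIP, 1.89 for CDKN1A and 1.84 for ATF3. Then came 1.70 for MT1A, 1.65 for IL11, 1.63 for JUN, 1.62 for MYC, 1.59 for MCM2, 1.58 for RRP9, 1.58 for MMP2, 1.57 for MT2A and 1.55 for MT1X. Below these were 1.51 for BGN, 1.47 for SQSTM1, 1.42 for GADD45B, 1.41 for SLC3A2, 1.38 for SLC2A1, 1.37 for PES1, 1.36 for ARRDC2, 1.36 for NDUFA8 and 1.36 for ATP5MC1. The value was 1.35 for KRT7, 1.35 for LIF, 1.34 for UTP4, 1.34 for SAT1, 1.30 for MT1E, 1.30 for GABARAPL1, 1.27 for RPL35, 1.23 for BAG3 and 1.21 for ASS1. Next came 1.19 for FTL, 1.17 for XBP1, 1.15 for DHCR7, 1.13 for GPI, 1.13 for NSDHL, 1.08 for HERPUD1, 1.03 for HSPA8, 1.02 for UQCRFS1 and 0.98 for RFC2. The smallest were 0.96 for CD68, 0.89 for RPL24 and 0.89 for PFKFB3. The limits given above hold for these values. ALB and TF follow the libraries with liver transcripts, which were picked by a list that holds both, and TF differed by 0.28 without them. POSTN differed by -0.084 without replicates 2 and 3 of clone A in TIFM. LYZ, VWF, TRPV6, IFITM10 and CD68 lost the call without single libraries.

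Those with a lower response in clone A differed as follows. The difference was -3.44 for SEMA3D, -3.28 for PDE5A, -3.24 for ITGB8, -3.13 for COX20, -2.92 for TRIM2, -2.78 for TET1, -2.73 for CDK15, -2.69 for STOX1 and -2.64 for PLA2R1. It was -2.64 for MTUS1, -2.63 for LGR4, -1.89 for CENPE, -1.74 for AGR2, -1.42 for XPOT, -1.13 for MDM2, -1.02 for KIF23, -0.98 for VLDLR and -0.89 for MT-CO3. Then came -0.75 for MT-ND2 and -0.75 for MT-CO1.

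For genes with 3 counts or fewer in a group only the adjusted p of the difference is given: 0.0089 for MAP2K6, 0.0122 for APOB, 0.013 for AFP and 0.0035 for ASTL. ARNT was not among the differing genes.

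Outside the comparison, parental cells in TIFM also held liver transcripts. Their summed level was 17.1, 12.3 and 45.2 CPM in parental replicates 1, 2 and 3 in TIFM, against 3.71, 3.49 and 3.39 CPM in parental cells in regular medium.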

How the results depend on the processing

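No gene called in the comparison of the responses was called with the opposite sign in any of the 25 alternatives. Its 3305 calls became 5561 with all 27 libraries in a single fit, 1489 without replicates 2 and 3 of clone A in TIFM, 5837 without the 3 libraries with liver transcripts and 5028 with a replicate block within each medium, and 1715 to 6135 when 1 library was left out. With the replicate block over all 12 libraries they numbered 3789; same-numbered deviations correlated at -0.22 to 0.59 over 18 pairs, and at 0.17 to 0.59 in the 3 pairs of TIFM libraries. Of the genes named, the block within each medium ended the calls of POSTN and TF and changed no other. Scaling by library totals alone called 2880, of which 44.0% were higher against 57.5% with TMM, and moved the median of all genes to -0.13. The count was 3247 with the GC correction, 4114 with DESeq2, 3185 with limma voom, 2963 with no filter and 3363 at a minimum count of 50. Clone A against clone B in TIFM (6192) became 2904 without replicates 2 and 3 of clone A in TIFM. In regular medium (1853) that count became 3411 with all 27 libraries, 4362 with limma voom, 2948 with the GC correction, 3319 with that and the replicate block, 3617 without replicates 2 and 3 of clone A in TIFM, 2814 without the liver-transcript libraries, 2829 with the block within each medium, and 1037 to 3017 when 1 library was left out. The counts for the TIFM response of each clone stayed within 1.5 times. With limma voom, and without the GC-shifted libraries, more genes passed in clone B than in clone A. ARNT turned to -0.041 with library totals and POSTN to -0.084 without replicates 2 and 3 of clone A in TIFM. Of 78 gene values, 57 kept direction and side of the threshold in every alternative that gave one. The causes were not tested, except that leaving out libraries leaves fewer samples. Without the GC-shifted or the liver-transcript libraries, 1 library remained in clone A in TIFM and was assumed to vary like the other groups.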

Other observations

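Further metabolic lists were counted in the same way. Of polyamine genes, 5 of 9 tested members (55.6%) were called higher and 2 lower, with a median of 0.86. Call counts were 4 higher and 0 lower with the GC correction, 1 and 0 without the GC-shifted libraries and 4 and 2 without the liver-transcript libraries. SAT1, which acetylates polyamines for export and breakdown, had 107, 119 and 173 CPM in clone A in TIFM, 60.3, 37.03 and 40.1 in clone A in regular medium, 240.3, 307 and 369 in clone B in TIFM and 258, 251 and 291 in clone B in regular medium. It rose in clone A (1.54) and was not called in clone B (0.20, adjusted p = 0.488), a difference of 1.34 ± 0.31 (SE, adjusted p = 0.00954), against an adjusted p of 0.0641 without replicates 2 and 3 of clone A in TIFM. Of arginine, proline and urea-cycle enzymes, 4 of 14 tested members (28.6%) were called higher and 1 lower, with a median of 0.22. Counts became 5 higher and 0 lower with the GC correction, 2 and 0 without the GC-shifted libraries and 4 and 0 without the liver-transcript libraries. ASS1, which makes argininosuccinate from citrulline, had 39.3, 49.9 and 63.4 CPM in clone A in TIFM, 7.13, 5.50 and 6.02 in clone A in regular medium, 28.4, 35.96 and 33.7 in clone B in TIFM and 9.23, 8.47 and 10.1 in clone B in regular medium, higher in TIFM in both clones and further in clone A, with a difference of 1.21 ± 0.26 (SE, adjusted p = 0.00698). Of autophagy and lysosome genes, 7 of 21 tested members (33.3%, against 14.1% of all genes) were called higher and 0 lower, with a median of 0.36. With the GC correction the share called higher was 14.3%, near the 13.5% of all genes in that setting. The GC correction gave 3 higher and 0 lower, leaving out the GC-shifted libraries gave 3 and 0, and leaving out the liver-transcript libraries gave 11 and 2. GABARAPL1, which helps form autophagosomes, had 79.9, 90.3 and 81.4 CPM in clone A in TIFM, 21.9, 16.8 and 18.9 in clone A in regular medium, 99.1, 104 and 103 in clone B in TIFM and 58.2, 53.7 and 60.6 in clone B in regular medium. Clone B stood above clone A in regular medium, and the ranges did not overlap in TIFM either, with a difference of 1.30 ± 0.18 (SE, adjusted p = 0.00138). Of iron genes, 3 of 12 tested members (25%) were called higher and 1 lower, with a median of 0.29. These counts were 4 higher and 0 lower with the GC correction, 3 and 0 without the GC-shifted libraries and 5 and 1 without the liver-transcript libraries.

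Of fatty acid synthesis genes, 2 of 15 tested members (13.3%, against 14.1% of all genes) were called higher and 0 lower (median 0.08). GC-corrected counts were 2 higher and 1 lower (median -0.13), and there were 1 and 0 (median -0.16) without the GC-shifted libraries and 1 and 2 (median -0.09) without the liver-transcript libraries, against 2 and 2 with the block within each medium. Of cholesterol efflux genes 0 of 7 were called in either direction in the edgeR test, with 1 at an unadjusted p under 0.05 and a median of 0.40. DESeq2 called 1 of them and limma voom 0. There were 0 higher and 0 lower with the GC correction, 0 and 0 without the GC-shifted libraries and 3 and 0 without the liver-transcript libraries, against 2 and 0 with the block within each medium. Of interferon-stimulated genes, 2 of 19 tested members (10.5%, against 14.1% of all genes) were called higher and 1 lower (median -0.33). Call counts were 2 higher and 1 lower with the GC correction, 0 and 0 (median 0.03) without the GC-shifted libraries and 3 and 4 without the liver-transcript libraries, against 3 and 5 with the block within each medium. Of MHC class I genes 3 of 14 tested members (21.4%, against 14.1% of all genes) were called higher and 2 lower, with a median of 0.38. With the GC correction the share called higher was 14.3%, near the 13.5% of all genes in that setting. Counts became 2 higher and 2 lower with the GC correction, 0 and 2 (median -0.11) without the GC-shifted libraries and 5 and 2 without the liver-transcript libraries. Of AHR targets, 1 of 7 tested members (14.3%, against 14.1% of all genes) were called higher and 2 lower (median -0.32). The GC correction gave 0 higher and 1 lower, leaving out the GC-shifted libraries gave 0 and 1, and leaving out the liver-transcript libraries gave 1 and 3.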
